A study of Mus musculus with 30 samples.

Results

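Bcl11b, Foxp1, Foxp2, Foxp4, Six3, Isl1 and Ebf1 are transcription factors of the lateral ganglionic eminence and of the striatum that grows out of it. Their RNA was measured in mouse neurospheres, floating clusters of dividing neural precursors, derived from ventral forebrain of 14-day embryos and cultured for 7 days in 1 of 3 growth factor regimes. The samples were hybridised to the Affymetrix chips MOE430A and MOE430B, and every probe set whose gene symbol in the platform tables is exactly one of these 7 genes (of 18193 genes with a probe set of their own) was taken, which gave 31 of 45137 probe sets. They comprise 8 for Foxp1, 6 for Foxp2, 5 for Ebf1, 4 for Bcl11b, 3 each for Foxp4 and Six3, and 2 for Isl1, with 17 on MOE430A and 14 on MOE430B. The rule uses gene symbols and no measured values, but the genes were chosen with earlier results of these data known.

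The EGF group held 6 RNA samples from the medial and lateral ganglionic eminences. The PDGF group held 6 samples grown with PDGF-AA at 100 ng/ml from the anterior entopeduncular area, a neighbouring part of the ventral forebrain. The PDGF and NT-3 group held 3 samples from that same area, grown with PDGF-AA and neurotrophin-3, for which the labels give 100 ng/ul, a unit that could not be checked. All groups shared the medium, DMEM:F12 with N2 and 2% B27. The labels name the lateral ganglionic eminence as a source only for the EGF samples, so that growth factor and region of origin cannot be told apart in a comparison of EGF with either other group. The growth protocol of the EGF samples names PDGF-AA. Their titles and their purification protocol name EGF, as do the descriptions, and the grouping follows these. The labels give the purity of the NT-3 samples and any contaminating cell type as unknown. The sources used here give neither mouse strain and sex nor the number of embryos, and do not say whether replicates were separate cultures. The p-values then measure only the spread between these samples, which may be technical.

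The lateral ganglionic eminence is the part of the embryonic ventral telencephalon that produces the projection neurons of the striatum, the GABAergic medium spiny neurons, and also olfactory bulb interneurons. Precursors in its ventricular zone give rise to neurons that switch on sets of transcription factors as they leave the cell cycle. Bcl11b and Foxp1 mark medium spiny neurons broadly, Ebf1 and Isl1 are tied to the neurons that project to the substantia nigra, and Six3 to those that project to the globus pallidus. The neighbouring medial ganglionic eminence and entopeduncular area produce cortical interneurons, cholinergic neurons and early oligodendrocyte precursors.

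Each probe set has a linear signal per array, and the authors had scaled all arrays to a common level. The number of arrays limits the precision. Of the 31 probe sets, 17 had a mean at or above the median of their chip, 5 were at or above the array's median on all 15 arrays, and 8 never reached it. Differences are log2 values with their standard error, taken on the log2 scale of signal plus a pseudocount, and therefore understate changes of dim probe sets. A probe set is called when its p from limma, adjusted by the Benjamini and Hochberg method over all 45137 probe sets of a comparison, is under 0.05. The levels of different probe sets cannot be compared with each other.

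EGF neurospheres had higher signals than PDGF neurospheres for Foxp1, Foxp2 and Six3, by 1.75-fold to 2.55-fold at the probe sets that were called. In limma, 5 of the 31 probe sets (16.1%) were called, all higher, where 4.92% of all probe sets were called in this comparison and 2.64% were called higher. The 31 have at most 22 distinct platform accessions, so counts of them in any comparison are not counts of separate transcripts. Averaged over a gene's probe sets, Foxp2 was called (limma adjusted p = 0.0406), while Foxp1 (0.130) and Six3 (0.353) were not. At an unadjusted p under 0.05 there were 9 higher and 1 lower, the latter of Isl1. Here and below, the share of all probe sets at an unadjusted p under 0.05 is not given. Such counts therefore cannot be read as unusual. All 5 called probe sets were among the 17 with a mean at or above the chip's median, a range of brightness in which 8.84% of all probe sets were called. The median log2 difference of the 31 was 0.32, against −0.02 over all probe sets. The EGF and PDGF samples did not overlap for 4 of the 31, all higher in EGF, where 2.35% of all probe sets did so in that direction.

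Adding NT-3 to PDGF-AA went with lower signals of Bcl11b, at 3 of its 4 probe sets, and of 1 probe set each of Foxp1 and Isl1. These were 5 of 31 (16.1%), all lower, where 11.6% of all probe sets were called and 6.68% were called lower. At an unadjusted p under 0.05 there were 2 higher and 9 lower, again without the share of all probe sets. Of the 17 brighter probe sets 4 were called, where 17.7% of all probe sets of that brightness were. The median log2 difference was −0.33, against −0.01 over all probe sets. The samples of both conditions did not overlap for 3 of the 31, all lower with NT-3, where 7.09% of all probe sets did so in that direction.

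EGF neurospheres had higher signals than PDGF and NT-3 neurospheres at 4 of the 8 probe sets of Foxp1, all 4 of Bcl11b, and 1 each of Foxp2 and Six3. These were 10 of 31 (32.3%), where 12.3% of all probe sets were called and 6.93% were called higher. At an unadjusted p under 0.05 there were 11 higher and 2 lower, also without the share of all probe sets. The 10 called probe sets were among the 17 brighter ones, of whose brightness 18.7% of all were called. The median log2 difference was 0.62, against −0.00096 over all probe sets. The samples did not overlap for 10 of the 31, which were 9 called probe sets and 1 of Foxp4 that was not called, where 7.61% of all probe sets did so in that direction. The 3 comparisons share samples with each other, so their values stand side by side and are not independent. In these bulk samples fewer cells that express a gene and less RNA per cell cannot be told apart.

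**Figure D1:**
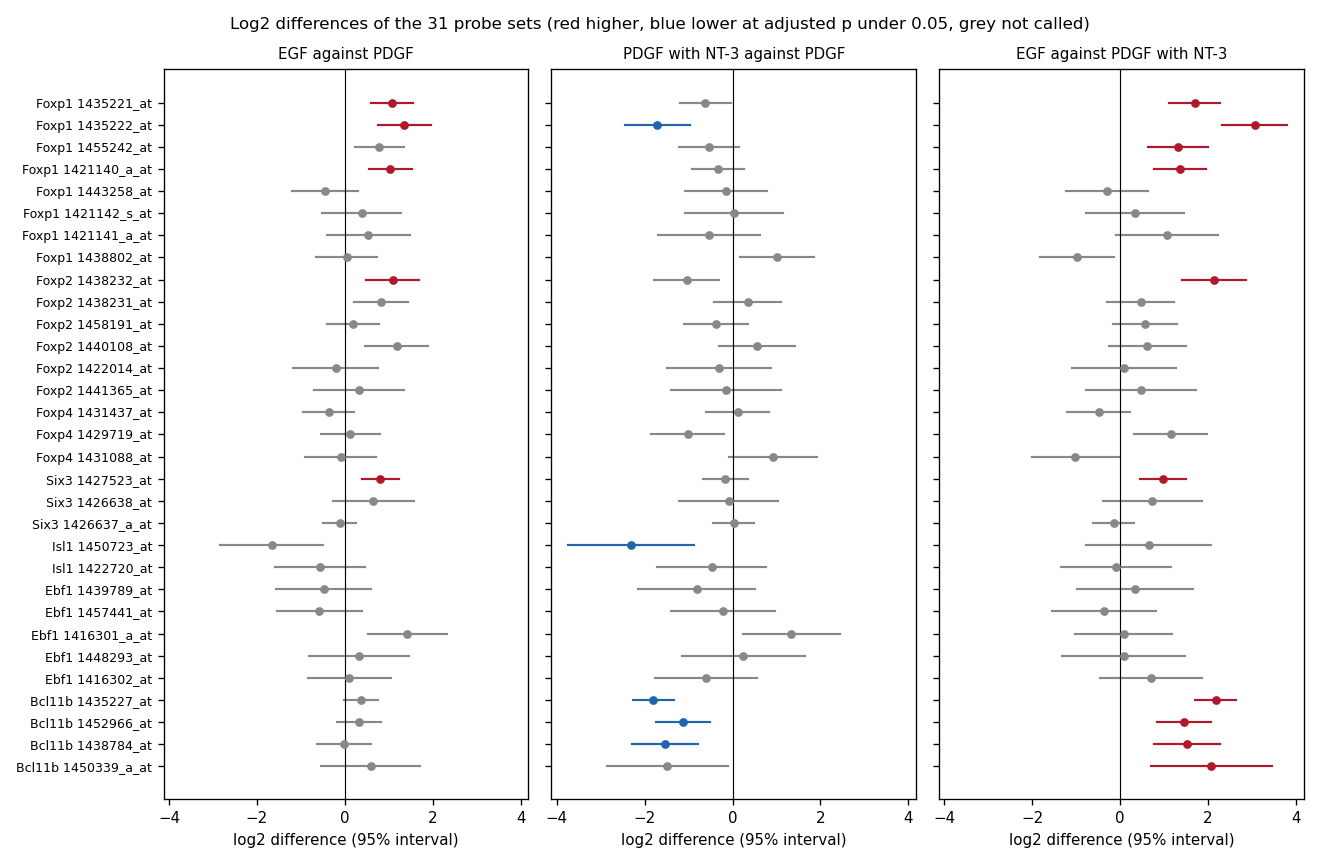
Log2 difference (x axis) of each of the 31 probe sets (y axis) in the 3 comparisons, with points for the estimate and bars for the 95% interval. Probe sets called higher at an adjusted p under 0.05 are red, those called lower blue and the others grey: 5 were red in the EGF against PDGF panel, 5 blue in the middle panel and 10 red in the right panel.

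Foxp1 is a forkhead repressor that is found in striatal projection neurons and also in cortical neurons. It had 8 probe sets with 4 distinct platform accessions, 5 of them with a mean at or above the chip's median and 3 never at the array's median. Probe sets 1435221_at, 1435222_at and 1455242_at share 1 accession and so do not give separate evidence of the transcript.

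The signal of 1435221_at was 3025, 2837, 1757, 3459.6, 2269.8 and 2454 in the EGF samples, 1129, 1395, 1191, 849, 2086 and 853 in the PDGF samples and 689, 727 and 872 with NT-3, each in replicate order. The EGF samples were high and the NT-3 samples low, and PDGF replicate 5 was above the lowest EGF sample. The log2 difference of EGF from PDGF was 1.08 ± 0.23 (2.11-fold, limma adjusted p = 0.00679), and it was 1.70 ± 0.28 (3.24-fold, adjusted p = 0.00063) from PDGF and NT-3. NT-3 samples and PDGF samples differed by −0.62 ± 0.28 (adjusted p = 0.164), which was not called.

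At 1435222_at the EGF samples read 3509, 3722, 2622, 3087, 2760.2 and 2460.2, the PDGF samples 1609, 1375, 1261, 1229, 1139 and 560.0 and the NT-3 samples 245, 690.1 and 167. All EGF samples were above all others, while NT-3 replicate 2 lay above PDGF replicate 6. EGF exceeded PDGF by 1.35 ± 0.29 (2.55-fold, limma adjusted p = 0.00703) and PDGF and NT-3 by 3.06 ± 0.35 (8.36-fold, adjusted p = 2e-05). This was the one Foxp1 probe set called lower with NT-3, with a log2 difference of −1.71 ± 0.35 (3.28-fold, adjusted p = 0.00451).

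The probe set 1421140_a_at, which has an accession other than that of the 3 above, read 1355, 1363, 1021, 1871, 1142 and 1853 with EGF, 529, 763, 849, 559, 792 and 531 with PDGF and 619, 461 and 471 with NT-3. The EGF samples lay above both other groups, which overlapped. EGF exceeded PDGF by 1.03 ± 0.23 (2.04-fold, limma adjusted p = 0.0113) and PDGF and NT-3 by 1.36 ± 0.28 (2.57-fold, adjusted p = 0.00416). The difference between NT-3 and PDGF was −0.33 ± 0.28 (adjusted p = 0.501). The dim 1421142_s_at and 1421141_a_at share the accession of 1421140_a_at and were not called in any comparison. Their differences of EGF from PDGF were 0.38 and 0.54 (limma adjusted p = 0.818 and 0.710).

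Signals of 1455242_at were 1180.4, 1265, 1306, 2296, 1095 and 979 with EGF, 664, 1347, 634, 730.1, 713 and 522 with PDGF and 426, 450.2 and 627 with NT-3. PDGF replicate 2 stood within the EGF range, and the NT-3 samples were below all EGF samples. EGF exceeded PDGF and NT-3 by 1.31 ± 0.32 (limma adjusted p = 0.0128). The difference from PDGF, 0.78 ± 0.26 (adjusted p = 0.118), was not called, but it was called without PDGF replicate 2 (0.95, adjusted p = 0.0391). It was also called when each chip was fitted alone (limma adjusted p = 0.0424). The other 4 Foxp1 probe sets were not called in any comparison. Among these 1443258_at, on MOE430B, differed by −0.45 ± 0.36 between EGF and PDGF (adjusted p = 0.688), opposite in sign to the other 7. The dim 1438802_at read 25.7, 354 and 147 with NT-3, and without NT-3 replicate 1 it was called higher with NT-3 than with PDGF (1.64, adjusted p = 0.0102).

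The 3 called differences of Foxp1 between EGF and PDGF were also seen within each of the 3 fluidics runs. These runs were inferred from station and time and held 2 samples of each condition. Within runs the differences were 0.79 to 1.25 for 1435221_at, 1.16 to 1.64 for 1435222_at and 0.95 to 1.10 for 1421140_a_at. The mean over all 8 probe sets gave 0.59 (adjusted p = 0.130) for EGF against PDGF and 0.94 (adjusted p = 0.0265) for EGF against PDGF and NT-3, with limma over 18193 genes. For NT-3 against PDGF it gave −0.35 (limma adjusted p = 0.433), which was not called. RefSeq lists 3 start sites for Foxp1, all on the minus strand of chromosome 6 of GRCm38.p6. In the 300 bases around each of them there were 13, 5 and 44 CpG, from the most upstream start to the most downstream, where the median promoter held 7. Which of these starts each probe set reads was not analysed here.

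**Figure D2:**
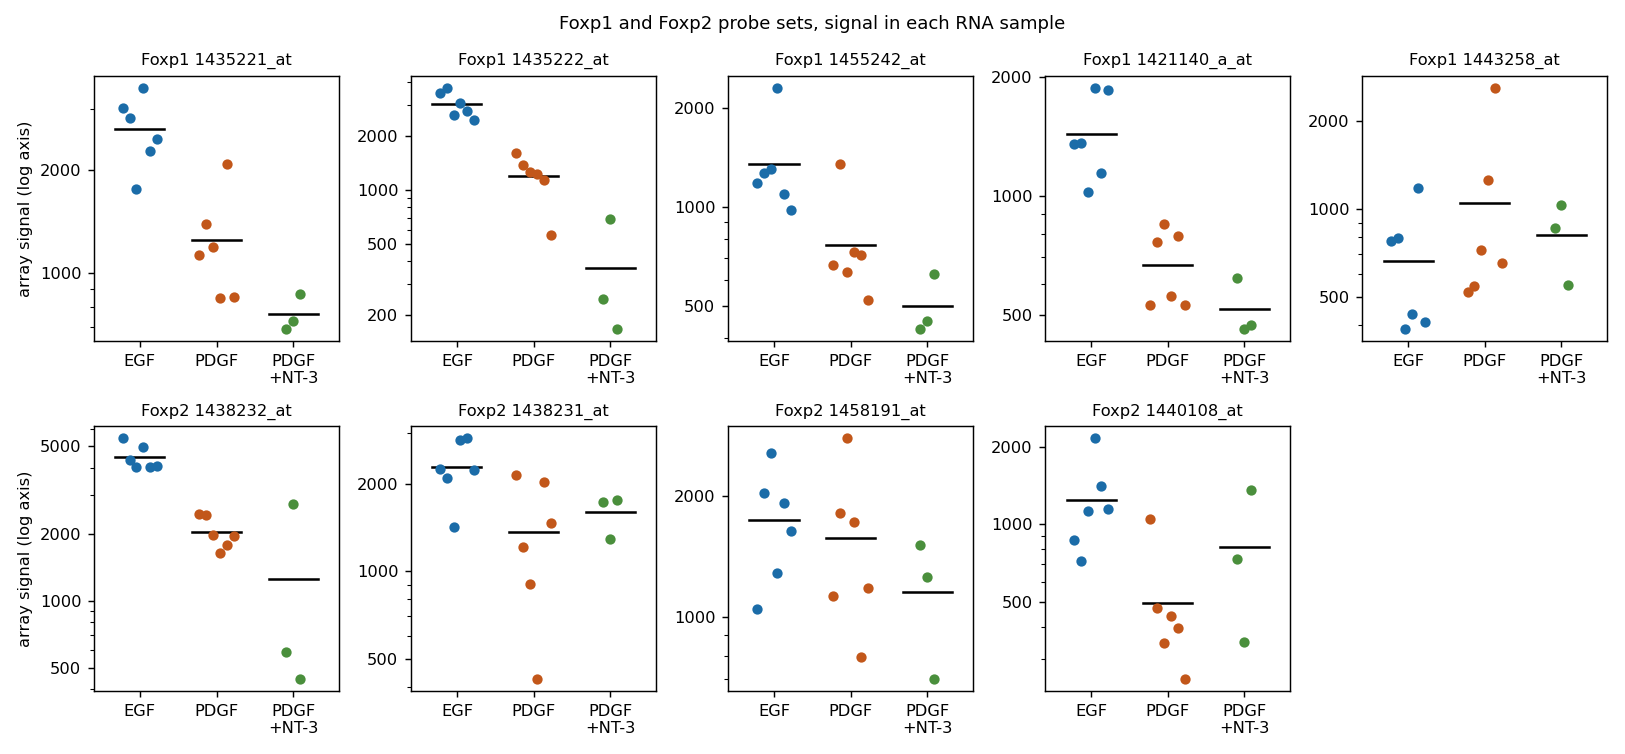
Array signal on a log axis (y) by condition (x) for the 5 probe sets of Foxp1 and 4 of Foxp2 with a mean at or above the chip's median, with a point for each RNA sample and a bar for the group mean. The EGF points lie above all PDGF points for 1435222_at, 1421140_a_at and 1438232_at, and 1 NT-3 sample of 1438232_at stands at 2744 while the others are at 590.3 and 442.

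Foxp2, a forkhead repressor of striatal and cerebellar Purkinje neurons whose human gene is linked to speech, had 6 probe sets. At 1438232_at the EGF samples read 5424, 4318, 4024, 4974, 4042 and 4083, the PDGF samples 2465, 2455, 1991, 1643, 1792 and 1963 and the NT-3 samples 590.3, 2744 and 442. All EGF samples exceeded all others, and NT-3 replicate 2 was above every PDGF sample while the other NT-3 samples were below every one. EGF exceeded PDGF by 1.09 ± 0.29 (2.13-fold, limma adjusted p = 0.0308) and PDGF and NT-3 by 2.13 ± 0.35 (4.39-fold, adjusted p = 0.000616).

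The Foxp2 call against PDGF was close to the threshold. It was lost in 10 of 15 fits that left out 1 sample, each of EGF replicates 1 to 6 and PDGF replicates 3 to 6, with adjusted p of 0.0510 to 0.0744. The difference itself stayed between 1.03 and 1.14 in all 15, and between 0.94 and 1.25 within fluidics runs. The difference between NT-3 and PDGF, −1.04 ± 0.35 (limma adjusted p = 0.0607), was not called, and without NT-3 replicate 2 it was −1.77 and called (adjusted p = 9.18e-05).

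The probe set 1438231_at shares its accession with 1438232_at and read 2249.9, 2093, 1422, 2841, 2866 and 2234 with EGF, 2152, 1209, 902, 424, 2027 and 1468 with PDGF and 1733, 1290.4 and 1757 with NT-3. Its groups overlapped in every comparison. The log2 difference of EGF from PDGF was 0.82 ± 0.29 (limma adjusted p = 0.152), and with NT-3 the sign was opposite to that of 1438232_at (0.35 ± 0.36, adjusted p = 0.587). At 1440108_at EGF exceeded PDGF by 1.18 ± 0.34 (adjusted p = 0.0531), which was not called. It was called without EGF replicate 2 (adjusted p = 0.0423), PDGF replicate 1 (0.0203), or NT-3 replicate 2 (0.0323) or 3 (0.0377). Under the other settings it was called in 4 of 12, with limma adjusted p of 0.0269 to 0.171. The EGF range of this probe set was 721 to 2158, against 251 to 1053 for PDGF, in which PDGF replicate 1 was the highest. The other 3 Foxp2 probe sets differed by −0.21 to 0.32 between EGF and PDGF and were not called. The mean over the 6 probe sets was 0.56 higher with EGF than with PDGF (adjusted p = 0.0406) and 0.72 higher than with PDGF and NT-3 (adjusted p = 0.0211).

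Foxp4, which can pair with Foxp1 and Foxp2 to bind DNA, had 3 probe sets and none was called by limma in any comparison, with 0, 1 and 2 at an unadjusted p under 0.05 in the order of the comparisons above. At 1431437_at the ranges were 1444 to 4271 with EGF, 1662 to 3883 with PDGF and 1810.0 to 4339 with NT-3, which overlapped throughout. The difference of EGF from PDGF was −0.37 with a 95% interval of −0.95 to 0.22. At 1429719_at the NT-3 samples read 1180.2, 898 and 344, below all EGF samples (1198 to 2908), and EGF exceeded them by 1.15 ± 0.39 (limma adjusted p = 0.0664). Without NT-3 replicate 1 this difference was 1.46 and called (adjusted p = 0.0463). The dim 1431088_at read 127, 1678 and 458 with NT-3, a spread of 13.3-fold within 1 group, and without NT-3 replicate 1 it was called higher with NT-3 than with PDGF (1.61, adjusted p = 0.0318). Calls were made for Foxp1 and Foxp2 but not for Foxp4, and the difference between the genes was not tested.

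Six3 is a homeodomain factor of the anterior forebrain and eye that in the lateral ganglionic eminence is needed for striatal neurons of the indirect pathway. It had 3 probe sets, of which 1427523_at reached the array's median on all 15 arrays. That probe set read 2499.6, 2546, 2823, 2035, 2824 and 2399.6 with EGF, 1218, 1686, 1504, 1651, 1571 and 985 with PDGF and 857, 1176 and 1933 with NT-3. Every EGF sample was above every other sample, and the PDGF and NT-3 ranges overlapped. EGF exceeded PDGF by 0.81 ± 0.20 (1.75-fold, limma adjusted p = 0.0221) and PDGF and NT-3 by 0.97 ± 0.24 (1.96-fold, adjusted p = 0.0141). NT-3 and PDGF samples differed by −0.17, with a 95% interval of −0.68 to 0.35 (adjusted p = 0.716). The order of the means was thus EGF, PDGF and NT-3, with the latter pair not separated beyond their spread.

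Within fluidics runs the Six3 difference of EGF from PDGF was 0.59 to 1.03. Its call was lost without EGF replicate 3 (0.77, adjusted p = 0.0558), EGF replicate 5 (0.77, 0.0570), PDGF replicate 1 (0.76, 0.0555) or PDGF replicate 6 (0.71, 0.0531). The call against PDGF and NT-3 was lost without NT-3 replicate 1 (0.71, adjusted p = 0.0883). The other probe sets of Six3, 1426638_at and 1426637_a_at, share an accession, were dim and were not called. The mean over the 3 was 0.44 for EGF against PDGF (adjusted p = 0.353) and 0.52 for EGF against PDGF and NT-3 (adjusted p = 0.250), so that neither was called at the level of the gene.

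Sequences around the start sites of Six3, Isl1 and Bcl11b are given because each has 1 start in RefSeq and at least 1 called probe set. Promoters of 6 of the 7 genes were matched in RefSeq (GRCm38.p6), each with 250 bases before and 50 after the start, written 5′ to 3′ along the gene. Capitals mark matches, searched on both strands, to 4 motifs, and no match overlaps another there. The NF-Y box, spelled CCAAT, was held by 37.4% of 32851 promoters of this length. The TATA box, spelled TATAAA, was held by 13.6%. The homeodomain core, spelled TAATTA, was held by 5.29%, and the Sp1 box, spelled GGGCGG, by 35.7%. A match describes the letters and no binding was measured. Six3 lies on the plus strand at chr17:85620584-85620883 with 14 CpG and 3 CCAAT matches, starting at −150, −131 and −86, where −1 is the base before the start. Isl1 lies on the minus strand at chr13:116309639-116309938 with 37 CpG and 2 CCAAT matches at −80 and −34. Bcl11b lies on the minus strand at chr12:108003365-108003664 with 9 CpG and 1 TATAAA match, on the opposite strand, at −5.
Six3: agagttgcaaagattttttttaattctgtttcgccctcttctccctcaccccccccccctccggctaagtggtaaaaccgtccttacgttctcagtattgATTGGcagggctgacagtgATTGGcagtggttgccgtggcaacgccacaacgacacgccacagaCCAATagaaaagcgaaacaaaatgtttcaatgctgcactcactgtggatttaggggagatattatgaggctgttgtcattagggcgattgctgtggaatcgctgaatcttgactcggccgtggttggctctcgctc
Isl1: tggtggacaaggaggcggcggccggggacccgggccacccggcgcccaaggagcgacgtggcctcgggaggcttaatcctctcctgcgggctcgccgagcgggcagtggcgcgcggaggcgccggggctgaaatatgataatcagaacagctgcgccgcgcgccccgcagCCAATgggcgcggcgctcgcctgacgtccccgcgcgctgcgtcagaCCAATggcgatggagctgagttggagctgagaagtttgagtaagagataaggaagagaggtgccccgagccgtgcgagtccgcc
Bcl11b: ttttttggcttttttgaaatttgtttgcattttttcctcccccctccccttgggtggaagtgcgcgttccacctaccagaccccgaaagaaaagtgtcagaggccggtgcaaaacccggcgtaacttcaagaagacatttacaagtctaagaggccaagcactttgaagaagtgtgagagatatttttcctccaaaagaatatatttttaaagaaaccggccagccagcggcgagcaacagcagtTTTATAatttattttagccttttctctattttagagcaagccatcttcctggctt

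Isl1, a LIM homeodomain factor of striatonigral and forebrain cholinergic neurons, gave its highest values in the PDGF samples. Both its probe sets have the same accession, and neither had a mean at the chip's median. At 1450723_at the EGF samples read 574, 158, 75.4, 818, 527 and 66.8, the PDGF samples 1086, 847, 874, 1117, 1145 and 719.6 and the NT-3 samples 91.1, 656 and 29.9. The PDGF samples stayed within 1.59-fold of each other, whereas the EGF samples spread over 12.2-fold and the NT-3 samples over 21.9-fold. EGF replicate 4 lay within the PDGF range, and all NT-3 samples were below all PDGF samples. In order of the mean, PDGF came first, then EGF and then NT-3, and the last pair did not differ beyond their spread.

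Isl1 fell with NT-3 relative to PDGF, with a log2 difference of −2.31 ± 0.68 at this probe set (4.96-fold, limma adjusted p = 0.0351). The call was lost without PDGF replicates 1, 3, 4 or 5 (adjusted p of 0.0532 to 0.0596), without NT-3 replicate 1 (−2.06, adjusted p = 0.119) and without NT-3 replicate 3 (−1.66, adjusted p = 0.180). It was also lost with array weights (adjusted p = 0.0725). EGF and PDGF differed by −1.67 ± 0.56 (adjusted p = 0.112), which was not called, though the sign was the same within every fluidics run (−1.87 to −1.48) and the difference was called when each chip was fitted alone (adjusted p = 0.0475). EGF and NT-3 samples differed by 0.64, with a 95% interval of −0.79 to 2.08 (adjusted p = 0.595). The second probe set, 1422720_at, was not called, with differences of −0.57 ± 0.49 for EGF and −0.48 ± 0.59 for NT-3, both against PDGF. The mean over both probe sets was −1.39 for NT-3 against PDGF (limma adjusted p = 0.110) and −1.12 for EGF against PDGF (adjusted p = 0.176), so that neither was called at the level of the gene.

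Ebf1, a helix-loop-helix factor of striatonigral neurons, had 5 probe sets and none was called by limma, with 1, 1 and 0 at an unadjusted p under 0.05 in the 3 comparisons. Of these, 1416301_a_at, 1448293_at and 1416302_at share 1 accession and never reached the array's median. The probe set 1439789_at read 177, 919.6, 107, 968, 1915 and 1593 with EGF, 979, 1327, 599, 878, 1079 and 1283 with PDGF and 459.9, 180.3 and 1361 with NT-3. EGF samples covered a 17.9-fold range that took in the whole PDGF range, and the difference of −0.48 had a 95% interval of −1.56 to 0.60. The dim 1416301_a_at had the largest estimated differences from PDGF of the 5, which were 1.42 ± 0.43 for EGF (limma adjusted p = 0.0695) and 1.33 ± 0.52 for NT-3 (adjusted p = 0.109). The former was called without EGF replicate 6 (1.71, adjusted p = 0.0175) or PDGF replicate 1 (1.60, adjusted p = 0.0487). It was also called when each chip was fitted alone (limma adjusted p = 0.0413). The intervals of Ebf1 do not show that its level was alike in the 3 conditions.

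**Figure D3:**
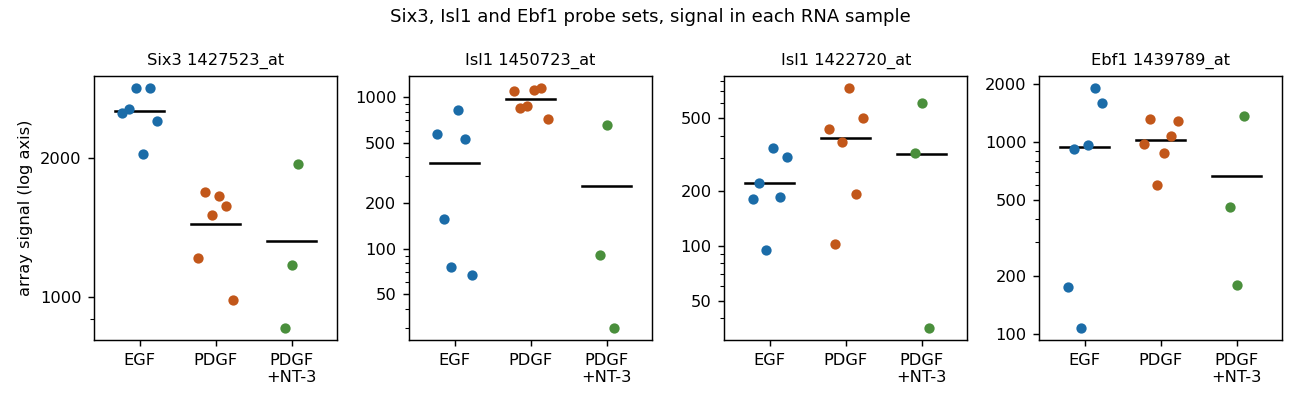
Array signal on a log axis (y) by condition (x) for 1 probe set of Six3, both of Isl1 and 1 of Ebf1, with a point for each RNA sample and a bar for the group mean. The Six3 points with EGF lie above all others, the 6 PDGF points of Isl1 1450723_at lie close together while the EGF points reach from 66.8 to 818, and the Ebf1 groups overlap.

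Bcl11b (also named Ctip2), a zinc finger factor needed for the maturation of medium spiny neurons and used too by deep-layer cortical neurons, was lower with NT-3 at all 4 probe sets, 3 of which were called. The 4 probe sets have 4 distinct accessions and all had a mean at or above the chip's median. At 1435227_at the EGF samples read 37404, 23287, 26188, 43570.4, 29949 and 26042, the PDGF samples 21866, 17781, 20359, 29164, 34504 and 20489 and the NT-3 samples 6009, 9013 and 5412. Every NT-3 sample lay below every other sample, and the EGF and PDGF ranges overlapped. NT-3 samples fell against PDGF samples, with a log2 difference of −1.80 ± 0.22 (3.48-fold, limma adjusted p = 0.000103), and EGF exceeded NT-3 by 2.17 ± 0.22 (4.50-fold, adjusted p = 6.7e-06). EGF and PDGF differed by 0.37 with a 95% interval of −0.01 to 0.76 (adjusted p = 0.370). Both calls were kept in all 15 fits that left out 1 sample, with differences of −2.01 to −1.65 for NT-3 against PDGF and 2.02 to 2.39 for EGF over NT-3.

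The probe set 1452966_at read 6781, 2817, 4014, 7726, 4753 and 4987 with EGF, 3927, 2109, 4409, 5141, 3936 and 4678 with PDGF and 1709.8, 2194 and 1363 with NT-3. PDGF replicate 2 was the one PDGF sample within the NT-3 range, and all EGF samples were above it. NT-3 samples fell against PDGF, with a log2 difference of −1.12 ± 0.29 (2.18-fold, limma adjusted p = 0.0181), a call lost without NT-3 replicate 1 (−1.12, adjusted p = 0.0528) or 3 (−0.97, adjusted p = 0.0840). EGF exceeded NT-3 by 1.45 ± 0.29 (2.74-fold, adjusted p = 0.00302).

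At 1438784_at the signals were 2343, 2475, 2643, 3683, 3175 and 1055 with EGF, 2605, 2044, 3250.0, 2827, 2246 and 1921 with PDGF and 1232, 1056 and 314 with NT-3. The NT-3 samples were below all PDGF samples, and EGF replicate 6 was inside the NT-3 range. NT-3 samples fell against PDGF, with a log2 difference of −1.54 ± 0.36 (2.91-fold, limma adjusted p = 0.00979) and EGF exceeded NT-3 by 1.52 ± 0.36 (2.87-fold, adjusted p = 0.00931). Without NT-3 replicate 3 the differences were −1.03 (adjusted p = 0.0684) and 1.01 (adjusted p = 0.0679), and neither was called.

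The remaining probe set, 1450339_a_at on MOE430A, read 1769, 1135, 796, 1643, 1366 and 1891 with EGF, 898, 119, 751, 2142, 1559 and 1535 with PDGF and 391, 693 and 67.5 with NT-3. PDGF replicate 2 was far below the other PDGF samples, and NT-3 replicate 3 was the lowest of all 15. The difference of NT-3 from PDGF, −1.48 ± 0.65 (limma adjusted p = 0.155), was not called, but without PDGF replicate 2 it was −1.97 and called (adjusted p = 0.0183). EGF exceeded NT-3 by 2.07 ± 0.65 (adjusted p = 0.0460), a call that remained in 4 of the 15 fits that left out 1 sample. The values of those fits were 1.32 to 2.64, with adjusted p of 0.00933 to 0.246, the highest of these without NT-3 replicate 3. Under the other settings this call remained in 5 of 11, with limma adjusted p of 0.0175 to 0.172. Averaged over its 4 probe sets, Bcl11b was lower with NT-3 than with PDGF (−1.49, adjusted p = 0.00651) and higher with EGF than with NT-3 (1.80, adjusted p = 0.00116), and it was not called between EGF and PDGF (0.32, adjusted p = 0.625).

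**Figure D4:**
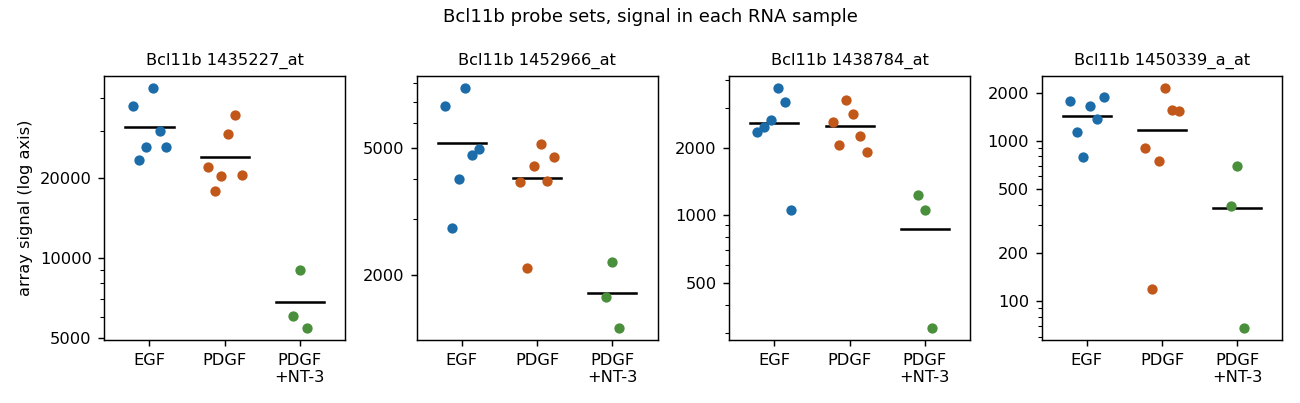
Array signal on a log axis (y) by condition (x) for the 4 probe sets of Bcl11b, with a point for each RNA sample and a bar for the group mean. At 1435227_at the 3 NT-3 points are the lowest. At each of the other probe sets 1 point of another group falls within the NT-3 range, a PDGF point at 1452966_at and 1450339_a_at and an EGF point at 1438784_at.

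Other genes of the lateral ganglionic eminence and striatum, each taken at 1 probe set, did not move in 1 direction. Of 33 measured genes of 38 listed, 2 were called higher and 2 lower with EGF than with PDGF. Meis2, a homeodomain factor of striatal precursors, rose by 1.71 and Arpp21, a phosphoprotein of medium spiny neurons, by 2.03, while Gsx1, a homeodomain factor of ventral precursors, fell by 2.21 and Gad1, an enzyme of GABA synthesis, by 1.50. With NT-3 against PDGF, 2 were called higher and 3 lower, among them Arpp21 at 1.99, the TALE homeodomain gene Pbx3 at 0.96, Gad1 at −1.82 and Gad2 at −1.23. Between EGF and NT-3, 3 were called higher and 2 lower, among them Rarb, a retinoic acid receptor, at 2.15. The medians of this list were −0.16, −0.24 and 0.17 in the order of these comparisons. Arpp21 thus was higher with NT-3 than with PDGF, where Bcl11b was lower.

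Among relatives of the 7 genes, again at 1 probe set each, the calls were as follows. Of 9 other Fox genes, Foxj1, a regulator of motile cilia, was called in the comparisons with NT-3 samples (−1.54 from PDGF, and 2.27 for EGF over NT-3). Of 21 further relatives of Six3, Ebf1, Isl1 and Bcl11b, the interneuron factor Lhx6 was the one called between EGF and PDGF (−1.42). With NT-3 against PDGF, Lmo1 was called higher (0.86) and Lmo2 (−1.95) and Lhx6 (−1.88) lower. Between EGF and NT-3, Lmo2 (1.61) and Lhx2 (2.19) were called higher and Lmo4 (−0.96) lower. These were 1, 3 and 3 of the 21, where 4.92%, 11.6% and 12.3% of all probe sets were called. Among probe sets with a mean at or above the chip's median the shares were 8.84%, 17.7% and 18.7%. Every list takes each gene at its brightest probe set, so its counts are to be read beside these shares. Genes of the medial ganglionic eminence and ventral midline had 4 lower and 0 higher of 17 with EGF against PDGF, among them Zic1 (−4.83) and Nkx2-2 (−1.01), and the count was also 4 lower and 0 higher with NT-3, by limma. At an unadjusted p under 0.05, 1 and 2 of that list were higher. Lhx6 stands in both of these lists, as 6 genes in all stand in more than 1 list.

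Markers of cell classes moved between the same groups. General neuronal genes were lower in EGF than in PDGF for 9 of 15 and lower with NT-3 for 10 of 15, with 0 higher in either by limma, also at an unadjusted p under 0.05, and their summed signal was 85800 to 154907 with EGF, 169017 to 261531 with PDGF and 102527 to 170300 with NT-3. Elavl3, an RNA-binding protein of young neurons, differed by −2.08 and Dcx, a microtubule protein of migrating neurons, by −1.95 between NT-3 and PDGF, beside the fall of Bcl11b and Isl1. Between EGF and PDGF, Bcl11b 1435227_at (0.37, limma adjusted p = 0.370) and Isl1 1450723_at (−1.67, adjusted p = 0.112) were not called. Foxp1, Foxp2 and Six3 had probe sets called higher there. Astrocyte and radial glia genes were higher in EGF than in PDGF for 7 of 14, with summed signals of 225431 to 320179 against 110735 to 138739 and 157802 to 190102 with NT-3. Much of the EGF sum came from Slc1a3, whose mean signal was 136736 with EGF, 18137 with PDGF and 13760.5 with NT-3. With NT-3 against PDGF, 5 of the 14 were called higher and 1 lower. Among those higher were Sox9, a factor of glial precursors, at 1.45 and Vim, an intermediate filament of radial glia, at 0.91. The 1 called lower was Nes, at −0.85. Oligodendrocyte genes were lower in EGF than in PDGF for 6 of 13, and with NT-3 3 were higher and 6 lower. The part of these shifts in the differences of the 7 genes was not tested. Dorsal telencephalic genes had 1 higher and 2 lower of 16 with EGF against PDGF. Endothelial and pericyte genes had 0 called of 14 by limma in that comparison (2 at an unadjusted p under 0.05) and summed to 3140 to 7286 over all samples, with 7 of the 14 never at the array's median. With NT-3 against PDGF 2 of them were called lower, the receptor gene Kdr at −1.54 and the channel subunit gene Abcc9 at −1.52, and the same genes were called higher with EGF than with NT-3. Fibroblast genes and genes of microglia, lymphocytes and blood had 0 called of 10 and 0 of 11 by limma between EGF and PDGF (1 and 0 at an unadjusted p under 0.05), and with NT-3 1 and 2 were called lower.

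For 1 probe set of each gene with a call, the 3 genes whose log2 profile over the 15 samples was nearest were sought among 18524 probe sets, by the root mean square difference after centring. For Foxp1 1435221_at they were Clic4 (0.268), Atp1b2 (0.304) and Fgfr2 (0.317), and for Foxp2 1438232_at they were Pmm1 (0.330), Scrn3 (0.360) and Crim1 (0.381). Six3 1427523_at was nearest to Dnajc1 (0.221), Btbd17 (0.241) and Nek6 (0.242). Bcl11b 1435227_at was nearest to Klf9 (0.340), Mrgbp (0.354) and Slc25a44 (0.357). For Isl1 1450723_at they were Dlgap1 (0.526), Rcan2 (0.641) and Ifnar2 (0.665). The measure is not scaled to a probe set's own spread, whose SD over the 15 samples was 0.78 for Foxp1, 0.97 for Foxp2, 0.53 for Six3, 0.90 for Bcl11b and 1.39 for Isl1, so that it does not rank these genes against each other. These values describe likeness over samples that share arrays and conditions.

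The NT-3 samples stood apart in ways other than condition. They shared 0 of the inferred fluidics runs with the other samples. Condition and run thus cannot be told apart in either comparison that uses them. The labels give the RNA of the NT-3 samples at 192, 287 and 171 ng/ul against 100 ng/ul for all others. Their correlations with each other were 0.804 to 0.827, against 0.876 to 0.897 among EGF and 0.870 to 0.908 among PDGF samples. As a measure of RNA quality, the signal of the 3′ Actb control over that of the 5′ control, on the log2 scale, was 3.21 to 3.70 for them on MOE430A, 2.42 to 3.42 with EGF and 2.58 to 3.27 with PDGF. On MOE430B, the chip of the 3 Bcl11b probe sets called lower with NT-3, it was 3.18 to 3.84 with NT-3, 2.43 to 3.14 with EGF and 2.89 to 3.40 with PDGF. The same ratio of the Gapdh controls on MOE430B was 4.10 to 4.20 with NT-3, above all EGF samples (3.47 to 3.81) and all PDGF samples (3.28 to 3.97). On MOE430A the Gapdh ratio overlapped, at 3.52 to 4.38 with NT-3, 3.62 to 4.01 with EGF and 3.65 to 4.12 with PDGF. The part of these ratios in the differences with NT-3 was not tested.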

How the data were processed

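Expression was measured in 15 RNA samples (6 EGF, 6 PDGF, 3 PDGF and NT-3), each on 1 MOE430A and 1 MOE430B array, and groups follow the labels. The deposited files hold 1 linear intensity per probe set. The submitters' processing notes name MAS5, and the sources used here give no version. The 2% trimmed mean of every array lay between 1500.2 and 1500.77. Signals were taken as log2 of signal plus the 10th percentile of the chip (51.9 and 115). Both chips were stacked without a filter, leaving out 64 control probe sets per chip, and limma 3.58.1 in R 4.3.3 was run on 45137 probe sets (lmFit, eBayes with trend). Tests of the 3 contrasts are two-sided, with adjustment by Benjamini and Hochberg over all probe sets. The code was tested on simulated data.

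Same-numbered samples did not deviate together (correlations of −0.0155 to 0.0603), so samples were not paired. Fluidics runs were inferred from the station and hybridisation time in the file headers. Arrays of the same chip, day and station without a long gap in time were taken as the same run. The genes, lists and alternatives were chosen with earlier results of these data known. All member probe sets are reported. Other genes were each taken at the probe set with the highest mean log2 signal relative to the median of its chip. They are named by adjusted p, up to 4 per list, beside the 3 nearest profiles per gene. Alternatives changed the pseudocount, scaling, filter, samples fitted, variance model and replicate block, and left out each sample.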

Additional observations from a re-analysis of the deposited data

Results flagged for a closer look

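Within the EGF and PDGF groups, 62 sets of 6 samples were checked for a sample far from the others. The measure was its gap to the nearest sample as a share of the group's whole range, against Dixon's critical value of 0.625. Gap and range were taken on the log2 scale of signal plus the pseudocount, while the signals given below are linear. The critical value was passed in 7 of 62, and chance alone gives about 1 in 20. The groups of 3 NT-3 samples were not checked.

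For Foxp1 1455242_at, EGF replicate 4 was high at 2296 with the next sample at 1306 (gap share 0.665), and PDGF replicate 2 was high at 1347 with the next at 730.1 (0.653). For Foxp1 1435222_at, PDGF replicate 6 was low at 560.0 with the next at 1139 (0.667). The same sample was low for the dim Foxp1 1421142_s_at, at 32.9 against 314.9 (0.732).

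For Foxp2 1441365_at, EGF replicate 5 was low at 42.0 with the next at 379 (gap share 0.812). For Bcl11b 1438784_at, EGF replicate 6 was low at 1055 with the next at 2343 (0.631). For Bcl11b 1452966_at, PDGF replicate 2 was low at 2109 with the next at 3927 (0.695). The cause of these gaps was not tested.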

How the results depend on the processing

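None of the differences of single probe sets or genes changed sign from a called value under the alternatives run (0 reversed). Of these comparisons across alternatives, 2335 were unchanged, 51 lost a call and 24 gained one. Differences not called in either fit count as unchanged, also where their sign differed. The unchanged ones include the values within fluidics runs, which had no test and were compared by sign only. For EGF against PDGF, 4 to 8 probe sets were called under the other settings, and 8 of them (7 higher, 1 lower) when each chip was fitted alone, beside 5. Leaving out 1 sample gave 3 to 6, with 3 without EGF replicate 3, EGF replicate 5 or PDGF replicate 6. For NT-3 against PDGF, 3 were called with array weights and 3 with the replicate block, beside 5, and leaving out 1 sample gave 2 to 6, with 2 without NT-3 replicate 3. For EGF against PDGF and NT-3, other settings gave 9 to 11 and leaving out 1 sample 8 to 11, beside 10. With the replicate number as a block the 3 counts were 5, 3 and 9, although the numbers only name samples. In that fit Isl1 1450723_at (−2.14, adjusted p = 0.0633) and Bcl11b 1452966_at (−0.91, adjusted p = 0.0548) lost their calls for NT-3 against PDGF. Bcl11b 1450339_a_at (1.51, adjusted p = 0.172) lost its call for EGF over NT-3. Without the variance trend Foxp2 1438232_at lost its call between EGF and PDGF (adjusted p = 0.0717). Causes were not tested. Dim probe sets limit what can be seen, since 8 of the 31 never reached the array's median.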
